A study of Mus musculus with 12 samples.

Results

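Among the genes counted in the frontal bone of mice at postnatal day 3, 37 rows of the deposited table were present in every sample of one inbred strain and nearly absent from every sample of the other. The tissue was taken with the nasal bone and with the sutures next to the frontal bone, the coronal and the frontonasal. There were 4 groups of 3 samples, which were C57BL/6 wild type, C57BL/6 carrying FGFR2C342Y/+, BALB/c wild type and BALB/c carrying FGFR2C342Y/+. The mutant groups have 1 changed copy of the fibroblast growth factor receptor 2 gene and model Crouzon syndrome, a disorder of premature suture fusion. The labels do not say whether a sample is 1 animal or a pool, so a p-value here measures only the spread between these samples. A gene was taken as on in 1 strain when each of the 6 samples of that strain, both genotypes together, had at least 16 deposited counts and each of the 6 samples of the other strain had at most 4. Rows on chromosomes X and Y, and identifiers beginning with Gbp, H2-, Bpif or Olfr, were left out, so the rule was applied to 21105 of 23358 rows. It found 35 genes on in C57BL/6 only, which is 0.166% of the rows, and 2 genes on in BALB/c only, which is 0.00948%. Because the counts of both strains chose these genes, their strain difference is described below and not tested.

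Inbred strains are fixed for different alleles at many loci, and a gene can be intact in one and deleted, truncated or silent in another. Genes of this kind are often found in families that were copied in tandem, among them the TRIM genes of innate immunity, the stefins, the C-type lectin ligands of natural killer cells and the pheromone receptors. Mouse reads are usually aligned to an assembly of the C57BL/6J genome, and mm10, the only build that the submitters' processing notes name, is such an assembly. A table made on it can have rows only for genes that the assembly and its annotation hold. The part this had in the counts of either strain was not tested.

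The gene counts of a sample ran from 27181658 to 46521546, and the strains overlapped in depth. The deposited counts contained 0 odd values in any sample, so the ceiling of 4 counts stands for 2 read pairs if both reads of a pair were counted. The totals behind the authors' RPKM values placed 19.3% to 24.4% of each C57BL/6 library outside the counted genes, against 12.03% to 13.6% of each BALB/c library. By their descriptions, the C57BL/6 samples were run on 1 flow cell and the BALB/c samples on another, so strain and flow cell cannot be told apart. The 7 osteoblast markers, among them Runx2 and Bglap, were detected in each group, and their summed level ran from 61998 to 141916 CPM, which are counts scaled to the library size, in single samples. The 5 markers of olfactory neurons summed to 112 to 220 CPM in C57BL/6 wild type, 5.92 to 76.8 in C57BL/6 mutants and 6.05 to 9.47 over the BALB/c samples. The 6 neutrophil markers summed to 92.9 to 319 CPM in C57BL/6 and to 449 to 703 in BALB/c. Markers of B cell precursors summed to 6.11 to 16.8 CPM in C57BL/6 and 27.3 to 53.4 in BALB/c, also without overlap. The other marker lists overlapped between the strains. Among them, basal epithelium ran from 8.20 to 197 CPM in C57BL/6 wild type, 0.269 to 4.65 in C57BL/6 mutants and 0.0492 to 0.560 in BALB/c.

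**Figure D1:**
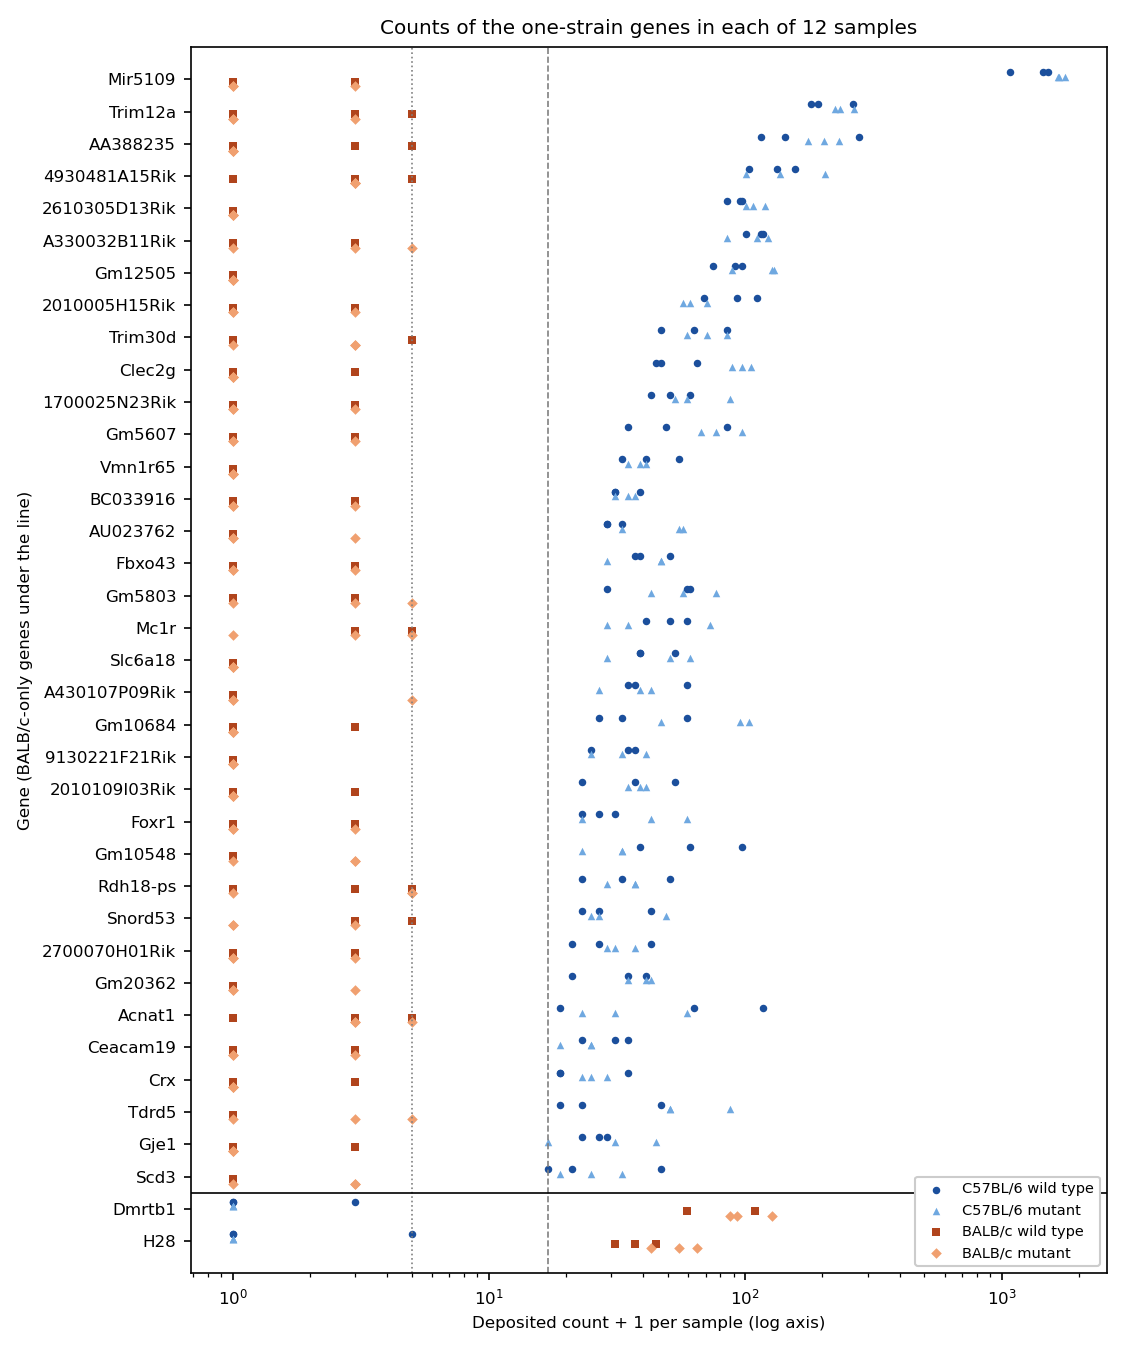
Deposited count plus 1 (log axis) of each of the 37 genes in each of the 12 samples, with 1 mark per sample, coloured by strain and genotype. The dotted line is the ceiling of 4 counts and the dashed line the floor of 16; the C57BL/6 marks of the upper 35 genes lie on or right of the dashed line and the BALB/c marks on or left of the dotted line, as the rule requires, with Dmrtb1 and H28 the other way round.

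Most of the genes on in C57BL/6 only were low. For 22 of the 35 the lowest C57BL/6 sample had 16 to 31 counts, for 6 it had 32 to 63, for 5 it had 64 to 127, and for 2, Mir5109 and Trim12a, it had 128 or more. Their median counts over the 6 C57BL/6 samples ran from 22 to 1587, with a median of 44. In BALB/c, 5 of them had 0 counts in all 6 samples, 18 reached at most 2 and 12 reached 4. In bulk tissue, fewer cells of a type and less RNA per cell cannot be told apart. Rows with at most 4 counts in every sample made up 19.4% of all rows in C57BL/6 and 23.2% in BALB/c, with more near-empty rows in BALB/c. Just inside the floor were Gje1 and Scd3, each with 16 counts in the lowest C57BL/6 sample. Just outside it was Gad2, a glutamate decarboxylase of inhibitory neurons, with 14 in the lowest C57BL/6 sample, a median of 143 and at most 2 in BALB/c. Just outside the ceiling was C330024D21Rik, with at least 48 counts in C57BL/6 and up to 6 in BALB/c. On the BALB/c side the nearest rows outside were 1700030L20Rik, whose lowest BALB/c sample had 14 counts, and Masp2, a protease of the complement lectin pathway, whose lowest BALB/c sample had 48 but whose C57BL/6 samples reached 6.

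**Figure D2:**
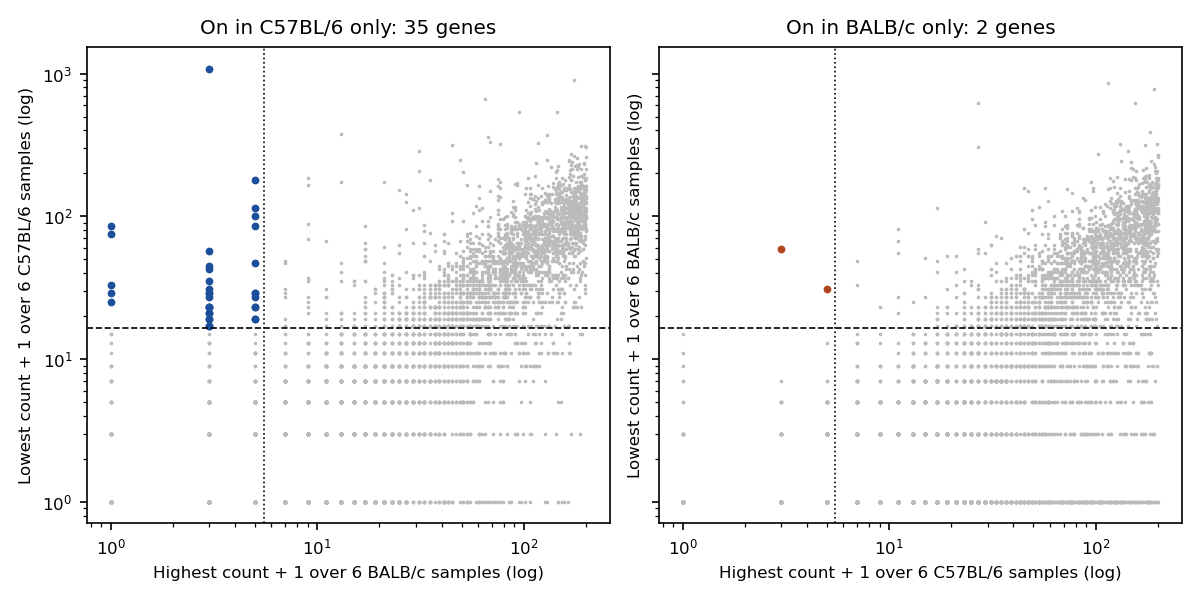
Lowest count plus 1 in the strain where a gene is on against the highest count plus 1 in the other strain (both axes log), 1 point per row, with rows past 200 counts on the horizontal axis not drawn. The coloured points left of the dotted line and above the dashed line are the 35 genes on in C57BL/6 only (left) and the 2 on in BALB/c only (right).

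The interferon-inducible TRIM genes of chromosome 7 held 2 of the C57BL/6 genes. TRIM proteins are RING-domain ubiquitin ligases, and many in this cluster are induced by interferon and act in antiviral defence or restrain inflammatory signalling. Trim12a (chr7:104299897-104315495 in the authors' table) had 180, 228 and 264 counts as the lowest, median and highest of the 6 C57BL/6 samples, and 2, 4, 0, 0, 0 and 2 in the BALB/c samples. The ratio of the strains, scaled for depth, was 155, with a 95% exact counting interval of 60.2 to 570 that covers counting error only. Trim30d (chr7:104470014-104507849), from the group whose relative Trim30a restrains inflammatory signalling, had 46, 66 and 84 counts in C57BL/6 and 4, 0, 0, 2, 0 and 2 in BALB/c, a ratio of 46.2 with an interval of 17.8 to 171. The genes lie 155 kb apart. The 300 bases around their annotated starts are shown here with those of Trim12c, the near copy of Trim12a that was on in both strains, because all 3 hold the same short motif. They are from RefSeq, build GRCm38.p6, minus strand, 250 bases before to 50 after the start, at chr7:104315446-104315745 for Trim12a, chr7:104353300-104353599 for Trim12c and chr7:104507800-104508099 for Trim30d. Capitals mark the match to the core of the interferon-stimulated response element, GAAANNGAAA, read here on its other strand as TTTCNNTTTC.
Trim12a: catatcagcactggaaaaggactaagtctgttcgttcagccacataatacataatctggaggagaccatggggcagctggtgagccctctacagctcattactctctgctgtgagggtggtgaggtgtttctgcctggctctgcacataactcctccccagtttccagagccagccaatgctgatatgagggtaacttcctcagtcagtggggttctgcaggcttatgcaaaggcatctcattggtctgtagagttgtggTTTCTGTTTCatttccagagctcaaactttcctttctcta
Trim12c: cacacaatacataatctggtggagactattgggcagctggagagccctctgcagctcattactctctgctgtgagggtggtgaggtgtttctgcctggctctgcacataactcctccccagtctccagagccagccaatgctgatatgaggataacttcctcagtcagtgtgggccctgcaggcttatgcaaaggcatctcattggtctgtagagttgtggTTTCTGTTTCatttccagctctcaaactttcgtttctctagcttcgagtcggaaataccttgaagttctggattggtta
Trim30d: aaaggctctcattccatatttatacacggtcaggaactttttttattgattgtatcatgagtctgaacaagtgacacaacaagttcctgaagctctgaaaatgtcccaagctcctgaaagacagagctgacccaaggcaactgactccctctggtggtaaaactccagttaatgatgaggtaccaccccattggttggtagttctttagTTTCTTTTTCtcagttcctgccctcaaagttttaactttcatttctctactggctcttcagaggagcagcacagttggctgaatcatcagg
The match begins at position 11 after the start in Trim12a, at -29 in Trim12c and at -41 in Trim30d. Trim30a, which was on in both strains, held the same letters as Trim30d, at -36. In an alignment of the Trim12a and Trim12c windows, 248 of 260 aligned bases were identical and 80 positions were gapped. Of the 26 one-strain genes with a promoter entry, 3 held the motif, the third being Gm5607. It was found in 3.44% of all 32851 promoters of the same length, on either strand. A match is a string of letters and not a shown binding site.

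The other TRIM genes of the cluster did not meet the rule. Trim12c had 316, 374 and 418 counts in C57BL/6 and 502, 642 and 812 in BALB/c, and its CPM was 1.92 times higher in BALB/c with no overlap. The summed level of Trim12a and Trim12c was 15.5 ± 1.63 CPM (SD, n = 6) in C57BL/6 and 18.5 ± 2.05 CPM (SD, n = 6) in BALB/c, and the strains overlapped. Of the 50-base words in the Trim12a transcripts, 10.5% also occur in other genes, and of those in Trim12c 33.7% do. The gene sharing most with each was Trim5, with 5.04% of the words of Trim12a and 24.2% of those of Trim12c, so counts of both are uncertain. Trim30b, with 10 to 22 counts in C57BL/6 and 0 to 4 in BALB/c, resembled Trim30d at a lower level. Trim34b went the other way, with 2 to 6 counts in C57BL/6 and 8 to 54 in BALB/c. Trim30a, with 138 to 232 and 108 to 214 counts, and Trim6, with 22 to 46 and 16 to 36, overlapped between the strains. Trim34a was 1.83 times higher in C57BL/6 in CPM, without overlap. Of the 26 other rows within 200 kb of Trim12a or Trim30d, 7 had enough counts to be tested, and 4 of these 7 had strain ranges that did not overlap in CPM. Over all 15564 tested autosomal rows the share was 24.6%, with C57BL/6 above in 1875 rows and BALB/c above in 1950.

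**Figure D3:**
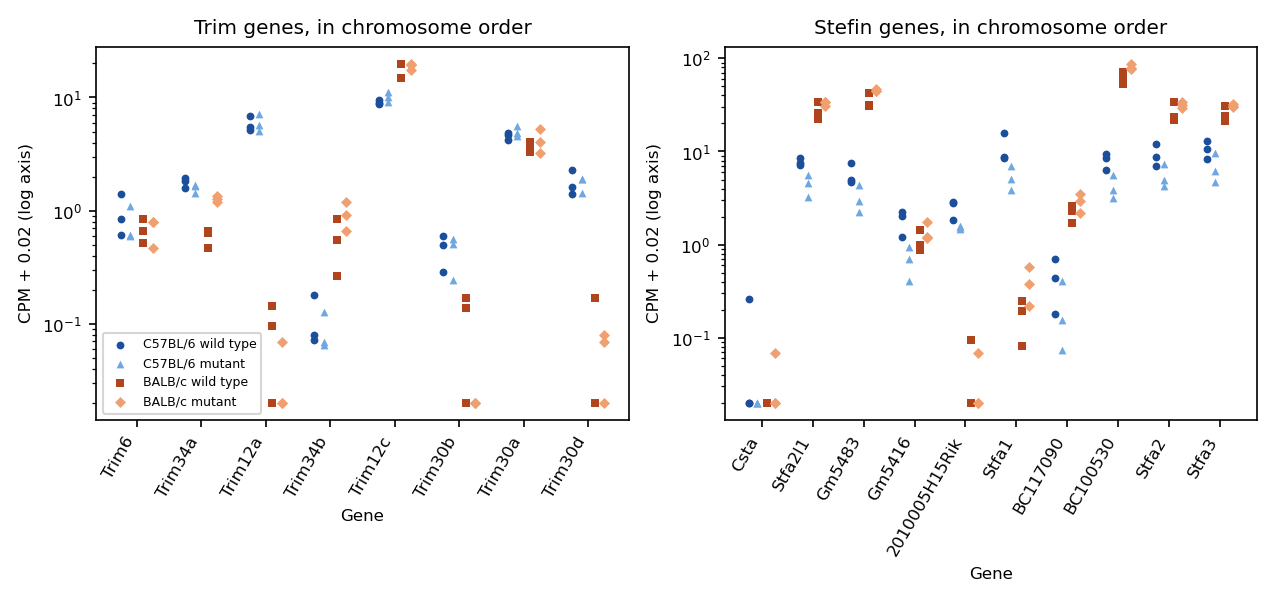
CPM plus 0.02 (log axis) of the TRIM genes around Trim12a and Trim30d and of the stefin genes around 2010005H15Rik, 1 mark per sample, in chromosome order. Within each cluster some genes are high in C57BL/6 alone, such as Trim12a and 2010005H15Rik, while others, such as Trim12c and Gm5483, are higher in BALB/c.

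A stefin on chromosome 16 behaved in the same way inside its own cluster. Stefins are small inhibitors of lysosomal cysteine proteases, and the mouse cluster is expressed mostly in myeloid cells. The gene listed as 2010005H15Rik, named Csta2 by RefSeq (chr16:36221562-36257427), had 110, 92 and 68 counts in C57BL/6 wild type, 70, 60 and 56 in C57BL/6 mutants, and 0 to 2 in BALB/c. The ratio was 104, with a counting interval of 28.5 to 866. Stfa1 had 142 to 602 counts in C57BL/6 and 2 to 26 in BALB/c, the same direction. Stfa2, with 184 to 458 and 576 to 1458, Stfa3, with 172 to 504 and 634 to 1446, Gm5483, with 82 to 288 and 830 to 2064, and BC100530, with 116 to 362 and 1666 to 3534, were all higher in BALB/c. Of the 10 stefin rows of the cluster, these and Stfa2l1 and BC117090 made 6 that were higher in BALB/c, as the neutrophil markers were, and 2010005H15Rik and Stfa1 were higher in C57BL/6. Gm5416, with 16 to 78 and 26 to 58 counts, and Csta, with 0 to 8 and 0 to 2, overlapped. Of the 12 other tested rows within 200 kb of 2010005H15Rik, 9 had strain ranges apart, beside 24.6% of all tested autosomal rows. Within C57BL/6, the neutrophil markers summed to 186 to 319 CPM in wild type and 92.9 to 194 in mutants. 2010005H15Rik and Stfa1 had lower CPM in mutants without overlap, and so did Stfa2l1, Gm5483, BC100530 and Gm5416. Stfa2, Stfa3, BC117090 and Csta overlapped between the genotypes. The share of all genes with such a gap was not counted. 2010005H15Rik had 2.86, 2.77 and 1.82 CPM in wild type and 1.58, 1.46 and 1.51 in mutants, a difference that was not called (edgeR adjusted p = 0.297). Stfa1 had 15.6, 8.49 and 8.74 CPM in wild type and 5.06, 6.89 and 3.83 in mutants. The part of neutrophil content in these values was not tested. Of the 50-base words in 2010005H15Rik, 20.4% also occur in other genes, all of them in Gm5483.

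Clec2g encodes a C-type lectin of the family whose members are ligands of the NKR-P1 receptors on natural killer cells. At chr6:128934381-128984707 it had 46, 64 and 44 counts in C57BL/6 wild type, 104, 88 and 96 in C57BL/6 mutants, and a single sample with 2 in BALB/c. The ratio of the strains was 202, with a counting interval of 35.9 to 8019. Its relative Clec2h was also listed in C57BL/6 alone, at 6 to 12 counts against 0, below the floor of the rule. Clec2d, at 328 to 464 counts in C57BL/6 and 372 to 710 in BALB/c, was 1.42 times higher in BALB/c in CPM. Ly6m, listed as 2010109I03Rik, belongs to the Ly6 family of membrane-anchored proteins and had 22, 37 and 52 counts in C57BL/6 and 0 to 2 in BALB/c. Trav3-3, a variable segment of the T cell receptor alpha chain listed as A430107P09Rik, had 26, 37 and 58 counts in C57BL/6 and 4 in 1 BALB/c sample. The Trav3-3 value is uncertain, since 40.0% of its 50-base words occur in other genes, mostly in the segment Trav3d-3.

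Mc1r encodes the receptor for melanocyte-stimulating hormone that switches melanocytes to dark pigment. It lies at chr8:123407082-123410744 and had 28, 45 and 72 counts in C57BL/6 and 0, 3 and 4 in BALB/c. The ratio was 16.1, with a counting interval of 7.96 to 38.1, among the lowest of the C57BL/6 genes. Tyr, the tyrosinase gene whose mutation makes BALB/c mice albino, had 66, 100 and 134 counts in C57BL/6 and 0, 2 and 10 in BALB/c, and missed the rule through 1 BALB/c sample. The other 7 melanocyte genes examined, among them Mitf, Pmel, Kit and Dct, overlapped between the strains. Mitf had 328 to 562 counts in C57BL/6 and 228 to 472 in BALB/c. The gene next downstream of Mc1r, the neuronal tubulin Tubb3, had 166 to 3408 counts in C57BL/6 and 78 to 150 in BALB/c. Another protein-coding entry, Gm20388, overlaps Mc1r on the same strand in the GENCODE annotation, and Gm38092 overlaps it on the other strand. Of the 50-base words of Mc1r, 18.6% occur in other genes, with 16.8% in Gm38092, so counts of Mc1r are uncertain. The share of Mc1r counts that came from Tubb3 transcripts was not tested.

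Vmn1r65 is a vomeronasal receptor, one of the pheromone receptors of the vomeronasal organ. At chr7:6007750-6011010 it had 32, 39 and 54 counts in C57BL/6 and 0 in all 6 BALB/c samples, at least 36.3-fold higher when the floor of 3 read pairs over the 6 BALB/c samples is used. The other vomeronasal rows with a count over 20 in any sample are given beside it. Vmn1r58 had 318 to 468 counts in C57BL/6 and 36 to 76 in BALB/c, Vmn2r29 had 30 to 66 and 0 to 10, and Vmn2r-ps129 had 26 to 38 and 0 to 10. These 4 were picked by their counts out of 332 vomeronasal rows. Vmn1r65, Vmn2r29 and Vmn2r-ps129 passed the cut of 20 only through C57BL/6. Their direction was therefore fixed by the pick and nothing is read from it. Vmn1r65 had 40, 32 and 54 counts in C57BL/6 wild type and 38, 34 and 40 in C57BL/6 mutants. The olfactory neuron markers summed to 112 to 220 CPM in the former and 5.92 to 76.8 in the latter, and their part in the counts of these receptors was not tested.

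2610305D13Rik is the KRAB zinc finger gene Zfp979 (chr4:147611936-147642508). KRAB zinc finger proteins bind DNA and recruit silencing complexes, often at transposable elements. It had 84, 98 and 118 counts in C57BL/6 and 0 in all BALB/c samples, at least 91.1-fold higher, with the most even level of the 35 genes, its highest C57BL/6 CPM being 1.19 times its lowest. Among its neighbours, Gm13152 had 70 to 146 counts in C57BL/6 and 26 to 76 in BALB/c, and Zfp933 overlapped, with 318 to 416 and 240 to 428. Of its 50-base words, 27.1% occur in other genes, most in Zfp600, which had 0 counts in all samples.

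Germ cell and eye genes appeared at low counts. Fbxo43, an inhibitor of the anaphase-promoting complex in meiosis, had 28, 42 and 50 counts in C57BL/6 and 0 to 2 in BALB/c. Tdrd5, which acts in silencing transposons in male germ cells, had 18, 46 and 22 counts in C57BL/6 wild type, 50, 86 and 50 in C57BL/6 mutants and 0 to 4 in BALB/c. Foxr1, a forkhead gene, had 22, 28 and 58 counts against 0 to 2, and Crx, the photoreceptor homeobox gene, had 18, 23 and 34 against 0 to 2. Gje1, a connexin-like gene of the lens, had 16, 27 and 44 against 0 to 2.

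Among genes of metabolism and transport, Slc6a18, an amino acid transporter of the kidney, had 28, 44 and 60 counts in C57BL/6 and 0 in all BALB/c samples, at least 40.5-fold higher. Acnat1, an acyl transferase of peroxisomes, had 116, 18 and 62 counts in C57BL/6 wild type, 58, 30 and 22 in mutants and 0 to 4 in BALB/c, the widest spread of the 35, its highest C57BL/6 CPM being 5.56 times its lowest. Its copy Acnat2, which shares 24.0% of its 50-base words, had 0 to 2 counts in any sample. Scd3, a stearoyl-CoA desaturase of the skin, had 16, 22 and 46 counts against 0 to 2. Its relatives Scd1, Scd2 and Scd4 overlapped between the strains, Scd2 at 7896 to 10892 and 5610 to 11114 counts. Rdh18-ps, a pseudogene of the retinol dehydrogenases, had 22 to 50 counts against 0 to 4 and is uncertain, since 63.5% of its 50-base words occur in other genes. Ceacam19, of the carcinoembryonic antigen family, had 18 to 34 counts against 0 to 2.

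Transcripts without a known protein made up a larger share of the C57BL/6 genes than of the table. Of the 35, RefSeq lists 18 as protein coding, or 51.4% against 86.5% of all rows, and 11 as long noncoding RNAs, or 31.4% against 7.60%. By name, 15 have a gene symbol and 20 a clone, predicted or small RNA name. The row with the most counts, Mir5109, a microRNA entry of 87 bases at chr5:17776749-17776835, had 1082, 1587 and 1772 counts in C57BL/6 and 0 to 2 in BALB/c. The ratio was 2091, with a counting interval of 578 to 17268. Its neighbours Cd36, at 1460 to 2364 and 1750 to 2514 counts, and Sema3c, at 868 to 1314 and 1082 to 1952, were well counted in both strains. These were mRNA libraries, which are not made to capture mature microRNAs.

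AA388235 (chr17:33981492-33985358), a long noncoding RNA of the major histocompatibility region, had 114, 188 and 276 counts in C57BL/6 and 0 to 4 in BALB/c. BC033916 (chr17:33905135-33906675) lies 74.8 kb away and had 30, 32 and 38 counts against 0 to 2. Its counts are uncertain, since 21.9% of its 50-base words occur in other genes, mostly in Gm7029. Of the 30 other tested rows within 200 kb of the pair, 10 had strain ranges apart in CPM, against 24.6% of all tested autosomal rows. They include H2-DMb1, which loads peptides onto class II molecules and had 118 to 146 counts in C57BL/6 and 4 to 16 in BALB/c. The other 9, among them H2-DMa and the cell division motor Kifc1, were higher in BALB/c.

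Several of the noncoding RNAs overlap protein-coding genes. 4930481A15Rik had 100, 134 and 204 counts in C57BL/6 and 0 to 4 in BALB/c, and is antisense to the end of Drap1, which had 1716 to 2434 and 1766 to 2824. A330032B11Rik, antisense to Cpeb3, had 84, 112 and 122 counts against 0 to 4, while Cpeb3 had 222 to 332 and 174 to 350. Gm12505, which overlaps 0 other GENCODE genes, had 74, 93 and 128 counts against 0 in all BALB/c samples, at least 91.8-fold higher. Gm5607, or Sox1ot, the transcript that overlaps the neural factor gene Sox1, had 34, 71 and 96 counts against 0 to 2, while Sox1 had 0 counts in all samples. Snord53, a small nucleolar RNA within Wdr43, had 22, 26 and 48 counts against 0 to 4 at its chromosome 17 row, and Wdr43 overlapped between the strains at 1640 to 2042 and 1164 to 2040. A second row of the same name on chromosome 7 had at most 2 counts. The remaining 7 names, 1700025N23Rik, AU023762, Gm5803, Gm10684, 9130221F21Rik, 2700070H01Rik and Gm20362, had 20 to 42 counts in their lowest C57BL/6 sample and 40 to 102 in their highest. Of these, Gm5803 is protein coding by RefSeq and a processed pseudogene by GENCODE. Its counts are uncertain, since 35.2% of its 50-base words occur in other genes, mostly in Hnrnpa1. For Gm10684 the share was 15.3%. In all, 20 of the 35 overlap another GENCODE gene and 12 overlap a protein-coding one, and the strand setting of the counting is not given in the sources used here, so reads of overlapping genes cannot be told apart.

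Levels between genes were compared per length, on the authors' RPKM scale. Mir5109 was far above the rest at 357 ± 32.7 RPKM (SD, n = 6), a value that its 87 bases inflate. Snord53, at 7.29 ± 2.27 RPKM over only 88 bases, had a mean of 0.814 CPM, against 5.86 for Trim12a. Next came 2010005H15Rik at 3.05 ± 1.19, Trim12a at 3.05 ± 0.532 and Gm12505 at 2.70 ± 0.390 RPKM (SD, n = 6 each), and these 3 did not differ beyond their spread. The lowest were Crx at 0.164 ± 0.0480, Ceacam19 at 0.158 ± 0.0477 and Scd3 at 0.156 ± 0.0766 RPKM (SD, n = 6 each), which overlapped. Summed, the 35 genes made up 81.9 to 100.4 CPM in C57BL/6 samples and 0.600 to 0.996 in BALB/c, and 49.3 to 61.1 against 0.600 to 0.996 without Mir5109.

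The 2 genes on in BALB/c only were Dmrtb1 and H28. Dmrtb1 is a transcription factor with the DM domain that governs entry into meiosis in male germ cells. It lies at chr4:107676290-107684162 and had 58, 100 and 126 counts in BALB/c and a single C57BL/6 sample with 2. The ratio was 316, with a counting interval of 56.3 to 12524, and the level was 2.71 ± 0.496 CPM (SD, n = 6) in BALB/c. The other 6 DM genes examined overlapped between the strains. Dmrt3, for example, had 0, 86 and 244 counts in C57BL/6 and 0, 0 and 2 in BALB/c, and Dmrta2 had 14 to 198 and 8 to 38. Of the 3 other tested rows within 200 kb of Dmrtb1, 1 had strain ranges apart in CPM, beside 24.6% of all tested autosomal rows. This was Magoh, 1.29 times higher in BALB/c, while the immediate neighbours Glis1 and Lrp8 overlapped. The promoter window of Dmrtb1, chr4:107684181-107684480 on the minus strand of RefSeq GRCm38.p6, is shown because it is the start of the only BALB/c gene well above the floor. Capitals mark a CCAAT box, searched on both strands and present in 37.4% of all promoters.
Dmrtb1: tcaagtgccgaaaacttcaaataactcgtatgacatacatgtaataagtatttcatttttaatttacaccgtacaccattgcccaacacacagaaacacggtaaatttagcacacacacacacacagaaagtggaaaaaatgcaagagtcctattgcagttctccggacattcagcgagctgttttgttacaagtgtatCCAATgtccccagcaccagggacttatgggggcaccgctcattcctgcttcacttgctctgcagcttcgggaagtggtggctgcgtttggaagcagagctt
H28, named Ifi44l by RefSeq, is an interferon-induced gene known as a minor histocompatibility antigen. At chr3:151758737-151762891 it had 30, 43 and 64 counts in BALB/c, and 4 in 1 C57BL/6 sample with 0 in the other 5. The ratio was 73.8, with a counting interval of 20.04 to 616. Its neighbour Ifi44, also interferon-induced, was 2.05 times higher in BALB/c in CPM without overlap, at 36 to 108 counts in C57BL/6 and 104 to 142 in BALB/c. Of the 50-base words of Dmrtb1 and of H28, 0% occur in other genes.

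Genes known from other work to differ between inbred strains were looked up beside them. Pla2g2a, a secreted phospholipase, had 0 counts in all samples. Nnt, the mitochondrial transhydrogenase gene of which a part is deleted in the C57BL/6J substrain, had 1780 to 2836 counts in C57BL/6 and 1700 to 2864 in BALB/c. A count over the whole gene need not show the loss of a part. Apobec3, a cytidine deaminase that restricts retroviruses, had 434 to 924 and 312 to 608. Nnt and Apobec3 both overlapped between the strains. Klrb1c, the natural killer receptor NK1.1, had 4 to 12 and 0 to 10 counts, and Hc, complement component C5, had 0 to 10 and 2 to 24, both near the lower end of the counts. H60a was not analysed here.

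The mutation was compared within the strain where each gene was on. The rule compared no genotypes, but it asked for 16 counts in every wild type and mutant sample of that strain, so genes that fall away in 1 genotype were left out beforehand and nothing is read from the number called. The test called 0 of the 35 C57BL/6 genes at an adjusted p-value under 0.05 (edgeR quasi-likelihood test, Benjamini-Hochberg over 16190 genes), against 23.9% of all genes tested. At an unadjusted p-value under 0.05 there was 1 of 35, against 39.2% of all genes. DESeq2 called 1, Gm10548, against 27.6%, and limma-voom called 2, Clec2g and Gm10548, against 29.1%. The log2 fold changes, mutant minus wild type, ran from -1.34 to 0.91 with a median of -0.04, and 16 were above 0 and 19 below. Their median standard error was 0.50 by edgeR and 0.31 by limma-voom, against 0.12 for all genes by edgeR. For Trim12a the log2 difference was 0.03 with a 95% interval of -0.79 to 0.86, and an interval of this width allows differences in either direction.

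Gm10548, a transcribed pseudogene antisense to the tumour suppressor Apc, had 96, 60 and 38 counts in C57BL/6 wild type and 32, 32 and 22 in mutants. The groups did not overlap in counts, and the log2 difference was -1.34 (SE 0.49, adjusted p = 0.0738 by edgeR, n = 3 each). DESeq2 gave an adjusted p of 0.0386 and limma-voom 0.0269. With ciliated cell markers as a covariate in edgeR the log2 difference was -0.57 (SE 0.96, adjusted p = 0.971), the highest adjusted p of the alternatives. Clec2g had non-overlapping counts in the other direction, with a log2 difference of 0.72 (SE 0.42, edgeR adjusted p = 0.235), and limma-voom gave 0.0243. With ciliated cell markers as a covariate it was 0.32 (SE 0.77, edgeR adjusted p = 0.982). Marker sums also differed between these groups. The ciliated cell markers ran from 19.1 to 39.7 CPM in C57BL/6 wild type and 4.37 to 11.7 in mutants, the erythroid markers from 169 to 233 and 45.1 to 71.6, and the cartilage markers from 4437 to 6523 and 249.9 to 2511. The Y-linked genes summed to 152 to 161 CPM in all 3 wild type samples and to 1.02 to 185 in mutants, so the sexes were not balanced. The part of olfactory, erythroid or cartilage tissue in either value was not tested, and with the Y-linked sum as a covariate in edgeR the adjusted p was 0.236 for Gm10548 and 0.411 for Clec2g. In BALB/c, 0 of 2 genes were called, against 0.136% of all genes, and 0 of 2 at an unadjusted p-value under 0.05, against 11.7%. Dmrtb1 had a log2 difference of -0.20 (SE 0.38, edgeR adjusted p = 0.907), and H28 of 0.20 (SE 0.57, edgeR adjusted p = 0.948). Without 1 library at a time the differences ran from -0.35 to -0.07 for Dmrtb1, at the ends without wild type replicates 13 and 14, and from 0.05 to 0.43 for H28, at the ends without wild type replicate 14 and mutant replicate 17. Ciliated cell markers as a covariate took Dmrtb1 to -0.40 (edgeR adjusted p = 0.63). DESeq2 gave no adjusted p to either, with 2.01% of all genes called, and limma-voom called 0 of 2, against 0.272%.

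**Figure D4:**
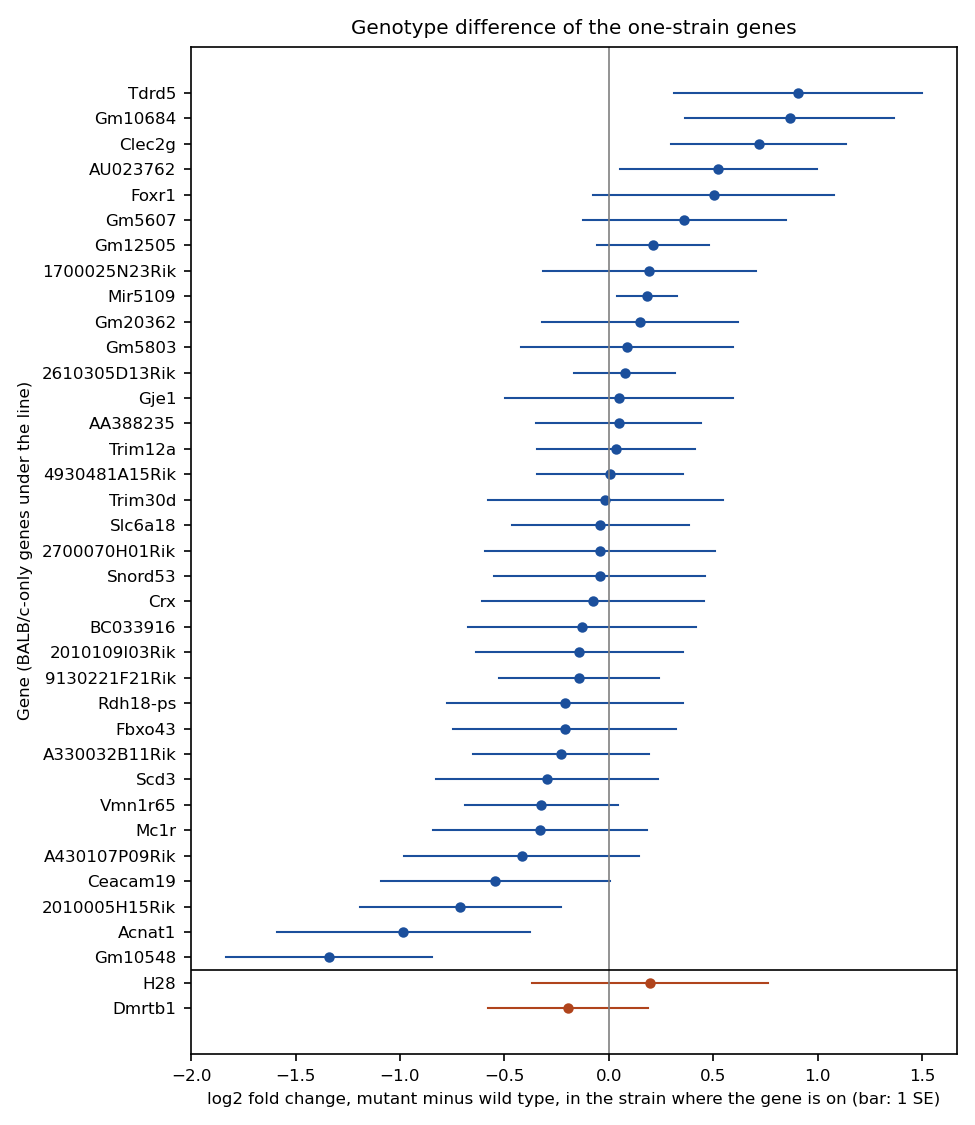
Log2 fold change of each one-strain gene, mutant minus wild type, in the strain where it is on, with a bar of 1 standard error, from edgeR over 3 samples a group. The 35 C57BL/6 genes run from -1.34 (Gm10548) to 0.91 (Tdrd5) around 0, and the bars of Dmrtb1 and H28 include 0.

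The authors' deposited table of comparisons gave 31 of the 35 genes as higher in C57BL/6 at q under 0.05 in both genotypes, and 2 of 2 BALB/c genes as higher in BALB/c. The shares of all genes with these calls were 12.4% and 10.1%, and nothing is read from the counts, which rest on the same samples. The log2 values in the authors' deposited table ran from 0.83 to 4.56 for those 31. The lowest were of 2010005H15Rik, at 1.07 in wild type and 0.83 in mutants, far below its ratio of 104 from the deposited counts. The cause of this gap was not tested. The other 4 had no q-value there. Mir5109 had log2 0.03 in wild type and 0 in mutants in the authors' deposited table, Gm10684 had -0.03 and 0.01, and Snord53 had 0.02 and 0.05, although each had at least 22 counts in every C57BL/6 sample and at most 4 in BALB/c in the count table. Tdrd5 had 1.32 and 1.96 in the authors' deposited table. For the mutation in C57BL/6, the authors' deposited table gave q under 0.05 to 2 of 31 genes, against 25.3% of all genes with a q. They were Clec2g, at log2 0.68 with q = 0.0487, and Gm10548, at log2 0.25 with q = 0.000298, the opposite sign to its deposited counts. In BALB/c it gave 0 of 2, against 1.43%.

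The number of genes in each direction moved with the cut-offs, and the C57BL/6 list was the longer under each setting tried. With a floor of 8 counts there were 66 and 6 genes, with 32 there were 13 and 1, and with 64 there were 7 and 0. With a ceiling of 0 there were 5 C57BL/6 genes, 2610305D13Rik, Gm12505, Vmn1r65, Slc6a18 and 9130221F21Rik, and 0 BALB/c genes. With a ceiling of 8 and a floor of 32 there were 21 and 3, the BALB/c side gaining Masp2 and Snord55 and losing H28. Keeping all names added Olfr1033 on the C57BL/6 side, and Gbp1 and H2-Ea-ps on the BALB/c side.

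**Figure D5:**
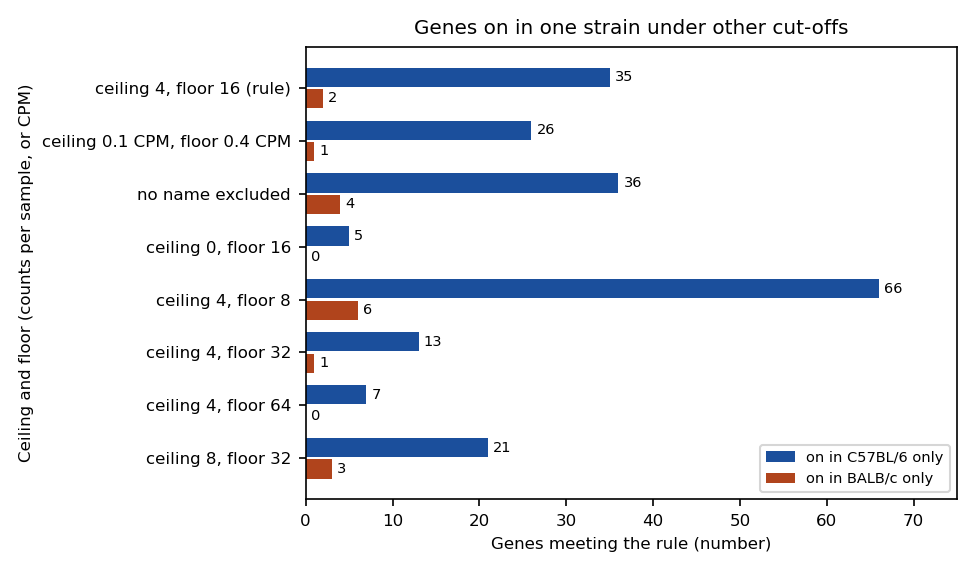
Number of genes that meet the rule in each direction when the ceiling in one strain or the floor in the other is changed, with the number beside each bar. The C57BL/6 bars run from 5 to 66 and the BALB/c bars from 0 to 6.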

How the data were processed

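RNA from the frontal bone region was sequenced in 12 samples, and the authors deposited 1 table of gene counts with an RPKM value per gene and sample, and 1 table of comparisons holding a p-value, a q-value and a log2 fold change for each. Per the submitters' processing notes the tools were bcl2fastq, TopHat2 2.0.6, HTSeq and DESeq2, and the build was mm10; the annotation and strand setting are not given in the sources used here. The deposited counts were used as they stand, and the authors' RPKM values only for levels per length and library totals. The number of value columns of no sample was 0. Identifiers on more than 1 row covered 69 rows, 1 of them a member.

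One-strain genes were found by the count rule, and CPM used TMM-scaled library sizes. The members and lists were chosen with earlier results of these data known. The mutation was tested with edgeR 4.0.16 in R 4.3.3 on 16190 genes (filterByExpr, minimum count 10, minimum total 15), as 1 quasi-likelihood model of 4 groups, with Benjamini-Hochberg adjustment at 0.05. The model was tested on simulated data. Alternatives were DESeq2 1.42.0, limma-voom (limma 3.58.1), RLE scaling, no filter, the samples of 1 strain only, 2 marker lists as covariates, leaving out each sample, and other cut-offs, of which floors of 8 and 64 and the pair of 8 and 32 were chosen after seeing the data.

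Named genes were up to 15 with a gene symbol by lowest count, 5 without, any called for the mutation, pairs within 200 kb, the rows next to each cut-off and 6 genes known to differ between strains. Other names in the text, such as cluster neighbours, were chosen after their values were seen. Folds against 0 counts use a floor of 3 read pairs (6 counts) over the 6 samples; other ratios carry 95% exact intervals. Both cover counting error only, because copies made by PCR were not marked. Shared 50-base words were counted over GENCODE transcripts, and promoters are from RefSeq.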

Additional observations from a re-analysis of the deposited data

How the results depend on the processing

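No paired analysis was possible because the groups share no replicate numbers. The 35 C57BL/6 genes became 5 with a ceiling of 0, 13 with a floor of 32, 66 with a floor of 8, 7 with a floor of 64 and 21 with a ceiling of 8 and a floor of 32, and 35 to 40 without 1 sample. The 2 BALB/c genes became 0, 1, 6, 0 and 3 in the same order, 1 on the CPM scale (at most 0.1 against at least 0.4), 4 with all names kept, and 2 to 3 without 1 sample. Of the 35, 26 met the CPM rule. Members called for the mutation in C57BL/6 were 1 with DESeq2 and 2 with limma-voom, and 0 to 0 without 1 sample. Over all genes, the 3867 calls in C57BL/6 became 1458 with that strain's samples only and 4 with the ciliated cell list as covariate, and 1724 to 4833 without 1 sample, the lowest without mutant replicate 6; without wild type replicate 1 there were 2184 and without mutant replicate 5 there were 2285. The 22 calls in BALB/c became 325 with DESeq2, 44 with limma-voom, 4 with the Y-linked list as covariate, 41 with the ciliated cell list and 71 with that strain's samples only, and ranged from 0 to 95 without 1 sample. With the ciliated cell list as covariate the log2 difference of Acnat1 turned from -0.98 to 1.45 (edgeR adjusted p = 0.845) and that of Tdrd5 from 0.91 to -0.46 (edgeR adjusted p = 0.982). The cause was not tested. Acnat1 was at -0.31 without wild type replicate 1 and Tdrd5 at 1.52 without wild type replicate 2. Strain cannot be told apart from flow cell.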
